A study of Homo sapiens with 27 samples.

Results

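The genes described here are 10 members of the route by which cytokine receptors signal through JAK kinases and STAT5. They are the receptors EPOR, IL7R and CRLF2, the kinases JAK1 and JAK2, the transcription factors STAT5A and STAT5B, the feedback inhibitors CISH and SOCS2, and the kinase PIM1. They were listed by name for their role in this route, with earlier results of these data known, and they are 10 of the 60619 genes in the count tables. A low-count filter kept 16268 genes, among them 9 of the 10 members. CRLF2 did not pass and was not tested.

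RNA was sequenced from 27 samples of REH, an established cell line of human BCP-ALL (leukemia of B-cell precursors) that carries the ETV6/RUNX1 fusion gene. All cells were harvested at 72 h. Medium without oligonucleotide (n = 2) and a non-targeting LNA GapmeR called NTC (n = 3) served as controls. The other samples received, by passive uptake at 10 µM as for NTC, 1 of 2 GapmeRs (GapmeR1 or GapmeR2) against a lncRNA. There were 3 samples of each GapmeR, except 2 of lnc-NKX2-3-1 GapmeR1 and 2 of lnc-ASTN1-1 GapmeR2, and the other lncRNAs were lnc-RTN4R-1 and lnc-TIMM21-5. The ETV6/RUNX1 fusion was present in every group, controls included, and a single cell line limits the model. Per the study's methods, replicates were treated on different days. That samples of equal replicate number shared a day across groups was assumed here and is not stated. Below, the same day means the same replicate number. Medium and lnc-NKX2-3-1 GapmeR1 have no replicate 3, and lnc-ASTN1-1 GapmeR2 has no replicate 2. The only control of replicate 3 is thus a single NTC sample.

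A GapmeR is an antisense DNA strand with locked nucleic acid ends that directs RNase H to a paired RNA. Type I cytokine receptors have no kinase of their own. When a ligand such as erythropoietin (for EPOR) or interleukin-7 (for IL7R) joins the receptor chains, the JAK kinases bound to them phosphorylate STAT5, which moves to the nucleus and switches on target genes. CISH and SOCS2 are such targets and dampen the signal, and PIM1 is a target kinase linked to cell survival. IL7R supports the growth of early B cells, EPOR is mostly known from red cell precursors and is high in ETV6/RUNX1 leukemia, and CRLF2 pairs with IL7R in the receptor for TSLP. RNA levels do not report phosphorylation, so the data speak of the transcripts of this route and not of its signal.

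The sequences of the oligonucleotides are shown because the members were read in cells treated with each of them. They are written 5′ to 3′ as listed by the study.
NTC: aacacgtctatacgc
lnc-NKX2-3-1 GapmeR1: tgctctgtgcggattg
lnc-NKX2-3-1 GapmeR2: ctgatttttagtagtg
lnc-RTN4R-1 GapmeR1: gcattcatgggttaag
lnc-RTN4R-1 GapmeR2: tgctgagacatctagg
lnc-TIMM21-5 GapmeR1: aattttgcatttggta
lnc-TIMM21-5 GapmeR2: gtcactttaattttgc
lnc-ASTN1-1 GapmeR1: taatctgccaggagtg
lnc-ASTN1-1 GapmeR2: gtctgaagtaatgga

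No GapmeR paired over its full length with the sense strand of any of the 10 member genes, introns included. The longest unbroken runs of pairing were 6 to 12 bases. Runs are shown for some of the pairs for which a change is reported below. Lnc-RTN4R-1 GapmeR2 paired with JAK1 over 10 bases at 3 sites, none in an exon. For lnc-NKX2-3-1 GapmeR1 and JAK1 the run was 10 bases at 1 site outside exons. The paired bases are in capitals.
lnc-RTN4R-1 GapmeR2 in JAK1: tgcTGAGACATCTagg
lnc-NKX2-3-1 GapmeR1 in JAK1: tGCTCTGTGCGgattg
lnc-NKX2-3-1 GapmeR1 in IL7R: tgCTCTGTGCggattg

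A run as long as that of lnc-RTN4R-1 GapmeR2 in JAK1 was present in 22.1% of the genes tested, and for lnc-NKX2-3-1 GapmeR1 in JAK1 in 12.5%. In IL7R the run of lnc-NKX2-3-1 GapmeR1 was 8 bases, at 1 site in an exon. In SOCS2, lnc-RTN4R-1 GapmeR1 paired over 7 bases and lnc-RTN4R-1 GapmeR2 over 10. Other pairs with a change below are not shown in capitals. Among them, lnc-NKX2-3-1 GapmeR2 paired with STAT5A over 11 bases at 5 sites, none in an exon, a length present in 69.0% of the genes tested. Lnc-NKX2-3-1 GapmeR1 paired with JAK2 over 10 bases, and lnc-RTN4R-1 GapmeR1 with IL7R over 9 and with EPOR over 8. These runs describe sequence and show neither binding nor cutting.

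Total counts were between 14627110 and 22750945 per sample (median 18776820), and levels are given as CPM, the usual scaling of counts to library size, here after TMM normalisation. Counting error bears most on CISH and CRLF2, the members with the fewest counts. Each of the 4 targeted lncRNAs was lower in every sample of its GapmeRs than in all 5 controls, with means at 15.2% to 45.1% of the control mean. In the controls, lnc-NKX2-3-1 was only at 0.326 to 1.26 CPM and lnc-TIMM21-5 at 1.08 to 2.19 CPM. Their shares of 15.2% and 15.7% thus rest on few counts. Of 12 B-cell precursor markers 11 passed the filter (VPREB1 had no count), and their summed level was 5200 to 6570 CPM. It was 5540 to 6270 CPM over the controls, 6260 to 6570 with lnc-NKX2-3-1 GapmeR1 and 6260 to 6420 with lnc-RTN4R-1 GapmeR1. With lnc-NKX2-3-1 GapmeR2 it was 5200 to 5680 CPM, and in the other GapmeR groups 5430 to 6190. All 7 erythroid and all 6 T cell markers were under 1 CPM in every sample. Of the 6 myeloid markers 4 were under 1 CPM in every sample, ELANE at 0, and MPO made up nearly all of the sum. The myeloid sum was 86.2 to 133 CPM over the controls, 164 to 197 with lnc-NKX2-3-1 GapmeR1 and 294 to 450 with lnc-RTN4R-1 GapmeR2. The part of the B-cell precursor and myeloid sums in the changes of the members in these groups was not tested. In a culture sequenced in bulk, a change in the share of cells that express a gene and a change in RNA per cell cannot be told apart.

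Levels between genes were compared as CPM per kb of exon. The length was that of all annotated exons of a gene together, whichever transcripts REH cells make. It was 13174 bases for JAK1, 12110 for STAT5B and 5056 for CISH, against 3077 for EPOR and 3030 for PIM1. The order below thus also depends on the annotation and is not an order of transcript numbers. IL7R was the most abundant member at 108 ± 13.2 CPM per kb (SD, n = 27), above 98.7% of 16024 genes tested whose length was known. PIM1 followed at 50.8 ± 7.40 CPM per kb and EPOR at 12.2 ± 1.14, above 75.3% of the genes. JAK1 stood at 9.34 ± 0.791 CPM per kb, SOCS2 at 7.66 ± 2.07 and STAT5B at 6.88 ± 0.288. JAK2 with 2.72 ± 0.288 CPM per kb and STAT5A with 2.67 ± 0.270 were lower, and CISH had 0.321 ± 0.0786. The sample ranges of EPOR and JAK1, of JAK1 and SOCS2, of SOCS2 and STAT5B, and of JAK2 and STAT5A overlapped, so the order within these pairs is not set beyond the spread. JAK2 and STAT5A lay above 41.1% and 40.7% of these genes and CISH above 11.6%, so IL7R and EPOR were more abundant per kb than both transcription factors. The lower STAT5A against STAT5B level is uncertain, since both are close paralogs and reads that map to several places were not counted. Both genes also overlap at their start on opposite strands, which the stranded counts separate.

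**Figure D1:**
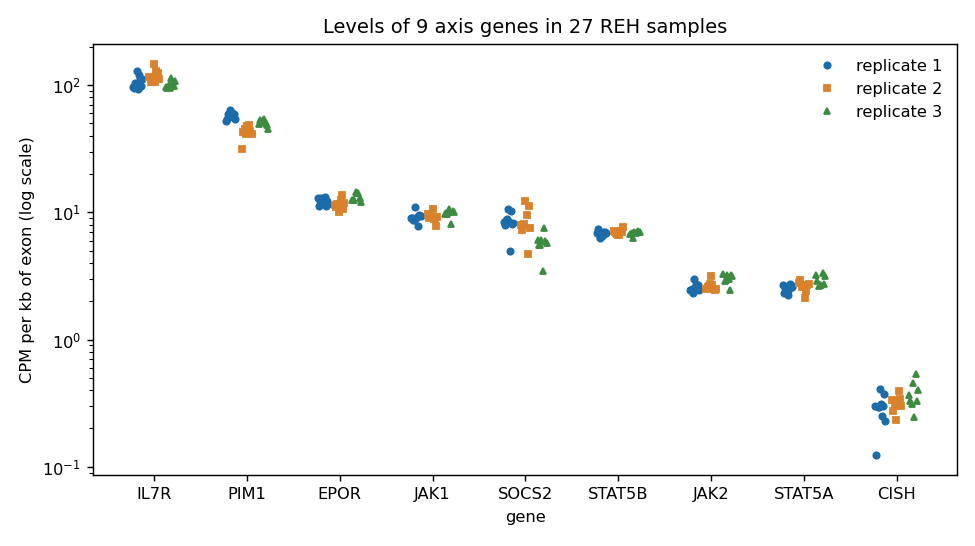
CPM per kb of exon (log axis) of the 9 members that passed the low-count filter, 1 point per sample, with colour and shape for the replicate number (10, 9 and 8 samples for replicates 1, 2 and 3). IL7R (108 on average) and PIM1 (50.8) lie above the other members, and CISH (0.321) lies lowest.

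The call used throughout is an adjusted p under 0.05 (edgeR quasi-likelihood test, Benjamini-Hochberg over all genes tested). Each GapmeR was compared with the mean of medium and NTC in 1 fit of the 27 samples, without and then with the replicate number as a block. Without the block, 4 of 72 combinations of member and GapmeR were called, 2 higher and 2 lower. With the block 16 were called, 13 higher and 3 lower. With lnc-NKX2-3-1 GapmeR1, 2 of 9 members were called, both higher, against 19.0% of all genes (7.81% higher and 11.2% lower). With the block it was 5 of 9, all higher, against 35.7% (17.5% higher and 18.1% lower). With lnc-RTN4R-1 GapmeR2, 1 of 9 was called, lower, against 9.46% of all genes (4.32% higher and 5.14% lower), and with the block 4 of 9, of which 3 were higher, against 25.2% (13.4% and 11.8%). With these oligonucleotides the members without the block were called about as often as genes in general. With lnc-RTN4R-1 GapmeR1, 1 of 9 was called, lower, against 2.39% (1.54% higher and 0.854% lower), and with the block 4 of 9, of which 3 were higher, against 9.03% (5.84% and 3.19%). For the other 5 GapmeRs no member was called by edgeR without the block, where 2 combinations had an unadjusted p under 0.05, and DESeq2 also called none for these. The shares of all genes called there without the block were 1.22% and 0.0184% for GapmeR1 and GapmeR2 of lnc-ASTN1-1, 0.184% and 0.0676% for those of lnc-TIMM21-5 and 0.043% for lnc-NKX2-3-1 GapmeR2. With the block, 2 of 9 members were called with lnc-NKX2-3-1 GapmeR2, 1 higher and 1 lower, against 3.74% of all genes (2.0% higher and 1.75% lower), and 1 of 9 with lnc-TIMM21-5 GapmeR1, higher, against 3.31% (2.03% higher and 1.27% lower). The remaining 3 had no member called with the block, against 4.82% and 0.16% for lnc-ASTN1-1 and 0.818% for lnc-TIMM21-5 GapmeR2, where 4 combinations had an unadjusted p under 0.05. All 8 of these comparisons share the same controls.

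**Figure D2:**
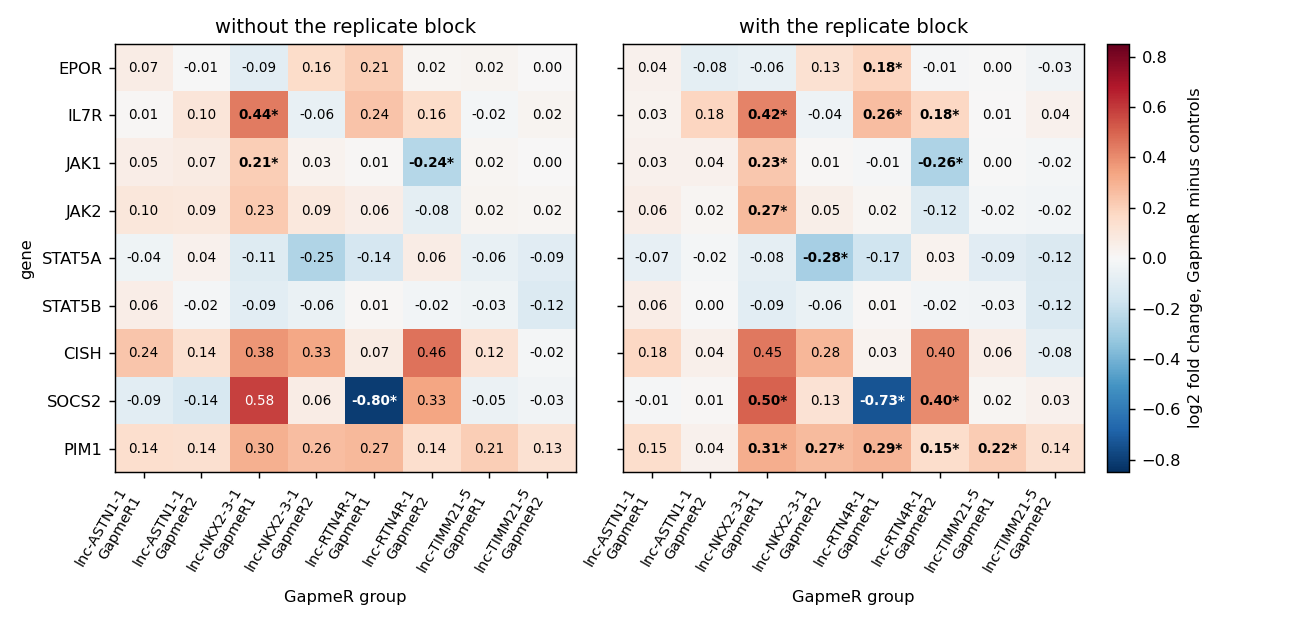
Log2 fold change of each of 9 members (rows) with each of 8 GapmeRs (columns) against medium and NTC, without the replicate block (left) and with it (right). Colour and number give the log2 fold change, and bold with an asterisk marks an adjusted p under 0.05, which 4 combinations reach on the left and 16 on the right.

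Among the receptors, EPOR (chr19:11377207-11384342, minus strand, ENSG00000187266; all coordinates are GRCh38) was not called with any GapmeR without the block. Its level was 39.9 and 34.9 CPM in medium and 34.5, 33.8 and 38.3 CPM in NTC, in order of replicate number. With lnc-RTN4R-1 GapmeR1 it was 40.6, 41.7 and 43.9 CPM, so these 3 samples lay above all 5 controls. With lnc-RTN4R-1 GapmeR2 it was 34.4, 32.9 and 43.5 CPM, with samples on both sides of the controls. With lnc-NKX2-3-1 it was 35.6 and 32.8 CPM for GapmeR1 (replicates 1 and 2) and 39.1, 38.1 and 44.8 CPM for GapmeR2. With lnc-ASTN1-1 and lnc-TIMM21-5 it lay between 30.9 and 40.1 CPM. Without the block its log2 fold changes ran from -0.09 to 0.21 over the 8 GapmeRs, with a lowest adjusted p of 0.365. With the block, EPOR was higher with lnc-RTN4R-1 GapmeR1 (log2 fold change 0.18, SE 0.058, adjusted p = 0.0367), above every control of the same day in 3 of 3 samples. That call was lost when replicate 1 or 2 of the group, replicate 1 or 3 of NTC or replicate 2 of medium was left out (adjusted p of up to 0.334). From the lowest to the highest of 27 samples EPOR spanned 1.45-fold, against 1.59-fold for IL7R and 3.56-fold for SOCS2.

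IL7R (chr5:35852695-35879603, plus strand, ENSG00000168685) had the clearest response of the receptors. It stood at 577 and 698 CPM in medium and at 568, 640 and 578 CPM in NTC. With lnc-NKX2-3-1 GapmeR1 it was 783 and 888 CPM (replicates 1 and 2), above every control. GapmeR2 against the same lncRNA gave 560, 641 and 568 CPM, within or next to the control range. IL7R rose with lnc-NKX2-3-1 GapmeR1 by 0.44 on the log2 scale (1.36-fold, SE 0.090, adjusted p = 0.000958), and it was higher in 2 of 2 samples than both controls of the same day. The call was lost when replicate 2 of this group was left out (log2 fold change 0.35, adjusted p = 0.0614) and held at each of the other 26 single libraries left out. With the block the log2 fold change was 0.42 (adjusted p = 3.66e-11). Lnc-RTN4R-1 GapmeR1 gave 719, 777 and 688 CPM and GapmeR2 gave 668, 753 and 640 CPM. All 6 samples lay above the controls of their day, which for replicate 3 is a single NTC sample. These differences were not called without the block (log2 fold changes 0.24 and 0.16, adjusted p = 0.152 and 0.255) and were called with it (0.26 and 0.18, adjusted p = 9.41e-07 and 0.000294). With lnc-TIMM21-5 the range was 568 to 684 CPM and with lnc-ASTN1-1 591 to 676 CPM, with no call in either fit. The blocked difference with lnc-ASTN1-1 GapmeR2 was of similar size to that with lnc-RTN4R-1 GapmeR2 and missed the threshold (0.18, SE 0.042, adjusted p = 0.0582). Its samples lay above the controls of their day in 2 of 2 cases.

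**Figure D3:**
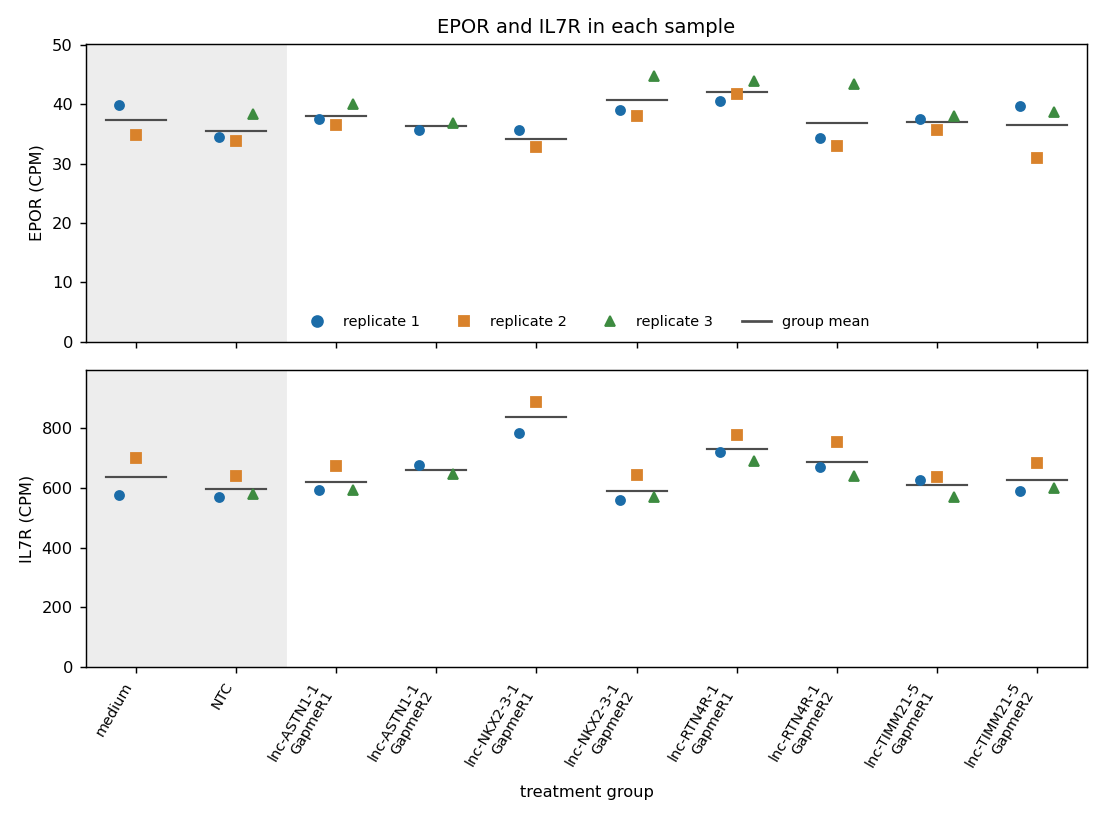
EPOR (top) and IL7R (bottom) in CPM in each of 27 samples by treatment group, with colour and shape for the replicate number, a bar at the group mean and the controls shaded. IL7R is highest with lnc-NKX2-3-1 GapmeR1 (783 and 888 CPM), and EPOR stays between 30.9 and 44.8 CPM in all groups.

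Over the 27 samples, the genes whose log2 CPM was most like that of IL7R were RAG1 (Pearson r = 0.927), the recombinase subunit of B and T cell precursors, TLE4 (r = 0.890), a corepressor, and BRD8 (r = 0.880), a chromatin protein. For EPOR they were SPSB1 (r = 0.780), DPEP2 (r = 0.770) and EOMES (r = 0.767), all at low levels of at most 5.48 CPM. These r describe 13550 genes with a mean of at least 1 CPM, and samples share days and groups. EPOR and IL7R themselves had r = -0.360 with each other.

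CRLF2 (chrX:1190490-1212723, minus strand, ENSG00000205755) had 24 counts over all 27 samples, and between 0 and 4 in any one. In medium it had 2 and 0 counts, and in NTC 0, 1 and 1. The most were 4 counts in replicate 3 of lnc-NKX2-3-1 GapmeR2 and 3 counts in replicate 3 of lnc-ASTN1-1 GapmeR2. It had no count in 11 samples, which allows up to 0.132 to 0.205 CPM without TMM scaling (3 counts per library, counting error only). CRLF2 lies in the region that chromosomes X and Y share. Reads that map to both copies would not be counted, and whether the Y copy was masked is not given in the sources used here, so the low count is limited in what it shows.

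JAK1 (chr1:64833223-65067754, minus strand, ENSG00000162434), which is bound by the IL7R chain, moved in opposite directions in 2 groups. It was 119 and 127 CPM in medium and 119, 118 and 127 CPM in NTC. With lnc-RTN4R-1 GapmeR2 it was 102, 103 and 106 CPM, below all 5 controls. With lnc-NKX2-3-1 GapmeR1 it was 144 and 139 CPM, above all 5. JAK1 fell by 0.24 on the log2 scale with lnc-RTN4R-1 GapmeR2 (0.847-fold, SE 0.064, adjusted p = 0.0173; -0.26 and adjusted p = 7.79e-06 with the block). It rose by 0.21 with lnc-NKX2-3-1 GapmeR1 (1.16-fold, SE 0.072, adjusted p = 0.0409; 0.23 and adjusted p = 9.43e-05 with the block). Without the block the first call was lost when replicate 1 or 2 of the group itself or replicate 2 of medium was left out (adjusted p of up to 0.0963). The second was lost without either of its own samples, replicate 1 of medium or replicate 2 of NTC (up to 0.208). With the block both calls held at each of 27 libraries left out. In the remaining 6 GapmeR groups JAK1 lay between 115 and 140 CPM and was not called.

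JAK2 (chr9:4984390-5129948, plus strand, ENSG00000096968), the kinase of EPOR, was 19.3 and 19.9 CPM in medium and 19.5, 20.6 and 25.8 CPM in NTC. Replicate 3 of NTC stood apart from the other controls. With lnc-NKX2-3-1 GapmeR1 it was 23.7 and 24.8 CPM, above the controls of replicates 1 and 2 but below that NTC sample. The difference was not called without the block (log2 fold change 0.23, SE 0.123, adjusted p = 0.228) and was called with it (0.27, SE 0.075, adjusted p = 0.00443), except when replicate 2 of the group was left out (adjusted p = 0.059). The other 7 groups lay between 18.4 and 25.5 CPM with no call in either fit.

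Neither STAT5 gene was called with any GapmeR without the block. STAT5A (chr17:42287547-42311943, plus strand, ENSG00000126561) was 17.1 and 17.8 CPM in medium and 14.9, 18.9 and 20.4 CPM in NTC. With lnc-NKX2-3-1 GapmeR2 it was 14.2, 13.5 and 17.0 CPM, below the controls of the same day in 3 of 3 samples. Its log2 fold change there was -0.25 (SE 0.102, adjusted p = 0.661) without the block and -0.28 (SE 0.074, adjusted p = 0.0223) with it. That call was lost with NTC alone as control in the blocked fit (-0.27, adjusted p = 0.159), and when any of 6 libraries was left out, replicate 1 or 2 of the group, either medium sample or replicate 2 or 3 of NTC (adjusted p of up to 0.134). STAT5B (chr17:42199176-42288633, minus strand, ENSG00000173757) was the least variable member. It lay between 82.0 and 89.1 CPM in the controls and between 76.3 and 92.6 CPM over all samples, a 1.21-fold span. Its lowest group was lnc-TIMM21-5 GapmeR2 with 76.7, 81.3 and 76.3 CPM, below the controls of the same day in 3 of 3 samples but not called (log2 fold change -0.12, 95% confidence interval -0.22 to -0.02, adjusted p = 1.00).

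The feedback inhibitors differed in abundance and in response. CISH (chr3:50606489-50611774, minus strand, ENSG00000114737) was 1.51 and 1.70 CPM in medium and 0.623, 1.38 and 1.85 CPM in NTC. All GapmeR samples lay between 1.16 and 2.71 CPM. No comparison of a GapmeR with the controls called CISH, with log2 fold changes from -0.02 to 0.46, SE of 0.265 to 0.313 and a lowest adjusted p of 0.330. With lnc-RTN4R-1 GapmeR2, where CISH was 1.51, 1.72 and 2.71 CPM, the log2 fold change of 0.46 had a 95% confidence interval of -0.09 to 1.01.

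The promoter of CISH is shown because STAT5 is known to act on this gene through TTCNNNGAA elements near its start. In the 250 bases before the start of CISH (RefSeq, GRCh38.p14, chr3:50611775-50612024, minus strand, written 5′ to 3′ along the gene), the word TTCNNNGAA, which reads the same on both strands, occurs 4 times, set in capitals.
CISH promoter: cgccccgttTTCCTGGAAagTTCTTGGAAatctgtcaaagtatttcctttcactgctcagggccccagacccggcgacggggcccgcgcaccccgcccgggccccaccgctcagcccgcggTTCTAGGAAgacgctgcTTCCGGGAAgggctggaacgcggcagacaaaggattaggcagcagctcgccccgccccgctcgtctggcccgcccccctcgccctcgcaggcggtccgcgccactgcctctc
The 4 words begin at positions -241, -230, -129 and -112 from the start. Of 35116 promoter windows of this length, 6.57% held at least 1 such word and 0.0142% (5 windows) held 4 or more. Among 15 promoter windows of 8 members, only that of CISH held TTCNNNGAA, and 1 window of STAT5A held the wider spaced TTCNNNNGAA, which 5.38% of all windows hold. SOCS2 and CRLF2 were not matched in this table. The words describe the sequence and are no evidence of binding.

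SOCS2 (chr12:93569814-93583487, plus strand, ENSG00000120833) varied over 3.56-fold among the 27 samples and showed the largest shifts of the members with GapmeRs. It was 54.8 and 51.7 CPM in medium and 51.5, 47.2 and 39.5 CPM in NTC. With lnc-RTN4R-1 GapmeR1 it was 32.0, 30.7 and 22.3 CPM, below all 5 controls. With lnc-RTN4R-1 GapmeR2 it was 66.2, 72.0 and 48.8 CPM, above the controls of the same day in 3 of 3 samples. With lnc-NKX2-3-1 GapmeR1 it was 68.7 and 79.6 CPM, above all 5 controls, and with GapmeR2 it was 54.6, 61.2 and 39.2 CPM. SOCS2 thus lay on opposite sides of the controls with the 2 GapmeRs against lnc-RTN4R-1.

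SOCS2 fell with lnc-RTN4R-1 GapmeR1 by 0.80 on the log2 scale (0.573-fold, SE 0.196, adjusted p = 0.0286). This call was lost with NTC alone as control (-0.70, adjusted p = 0.174) and when any of 7 single libraries was left out, which were its own 3 samples, both medium samples and replicates 1 and 2 of NTC (adjusted p of up to 0.217). With the block the log2 fold change was -0.735 (SE 0.064, adjusted p = 1.21e-11) and the call held at each of 27 libraries left out. The difference with lnc-NKX2-3-1 GapmeR1 (0.58, SE 0.207) missed the threshold without the block (adjusted p = 0.0536) and was called with it (0.50, SE 0.064, adjusted p = 2.80e-08). Without the block it also missed the threshold with unstranded counts (adjusted p = 0.057) but passed it under 6 other settings, DESeq2 among them (adjusted p = 1.56e-08 to 0.0493). With lnc-RTN4R-1 GapmeR2 the log2 fold change was 0.33 without the block (adjusted p = 0.315) and 0.40 with it (adjusted p = 9.33e-07). In the 4 groups of lnc-ASTN1-1 and lnc-TIMM21-5, SOCS2 was 35.8 to 57.2 CPM and was not called in either fit.

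PIM1 (chr6:37170152-37175428, plus strand, ENSG00000137193) differed mostly by replicate number. Medium had 158 and 95.0 CPM and NTC had 165, 129 and 151 CPM. With lnc-NKX2-3-1 it was 193 and 144 CPM for GapmeR1 and 187, 144 and 160 CPM for GapmeR2, and with lnc-RTN4R-1 184, 147 and 165 CPM for GapmeR1 and 170, 131 and 152 CPM for GapmeR2. Medium was the lowest of the 10 samples of replicate 1 and of the 9 samples of replicate 2. PIM1 was not called with any GapmeR without the block (log2 fold changes 0.13 to 0.30, lowest adjusted p = 0.287). With no low-count filter it was called in the fit lacking a block with lnc-NKX2-3-1 GapmeR1 (adjusted p = 0.00377) and lnc-RTN4R-1 GapmeR1 (0.0223). With the block it was called higher with 5 of 8 GapmeRs, both of lnc-NKX2-3-1, both of lnc-RTN4R-1 and GapmeR1 of lnc-TIMM21-5 (log2 fold changes 0.15 to 0.31). With the block and NTC alone as control it was called with 2 of these 5, lnc-NKX2-3-1 GapmeR1 (0.18, adjusted p = 0.0120) and lnc-RTN4R-1 GapmeR1 (0.16, adjusted p = 0.0471). In blocked fits of the samples of each contrast alone, none of the 5 was called (adjusted p = 0.119 to 0.563). Without replicate 2 of medium the blocked calls with lnc-TIMM21-5 GapmeR1 and lnc-RTN4R-1 GapmeR2 were lost (adjusted p = 0.105 and 0.185), the second also without replicate 2 of its own group. The difference of NTC from medium was 0.25 with the block (SE 0.058, adjusted p = 0.0877).

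**Figure D4:**
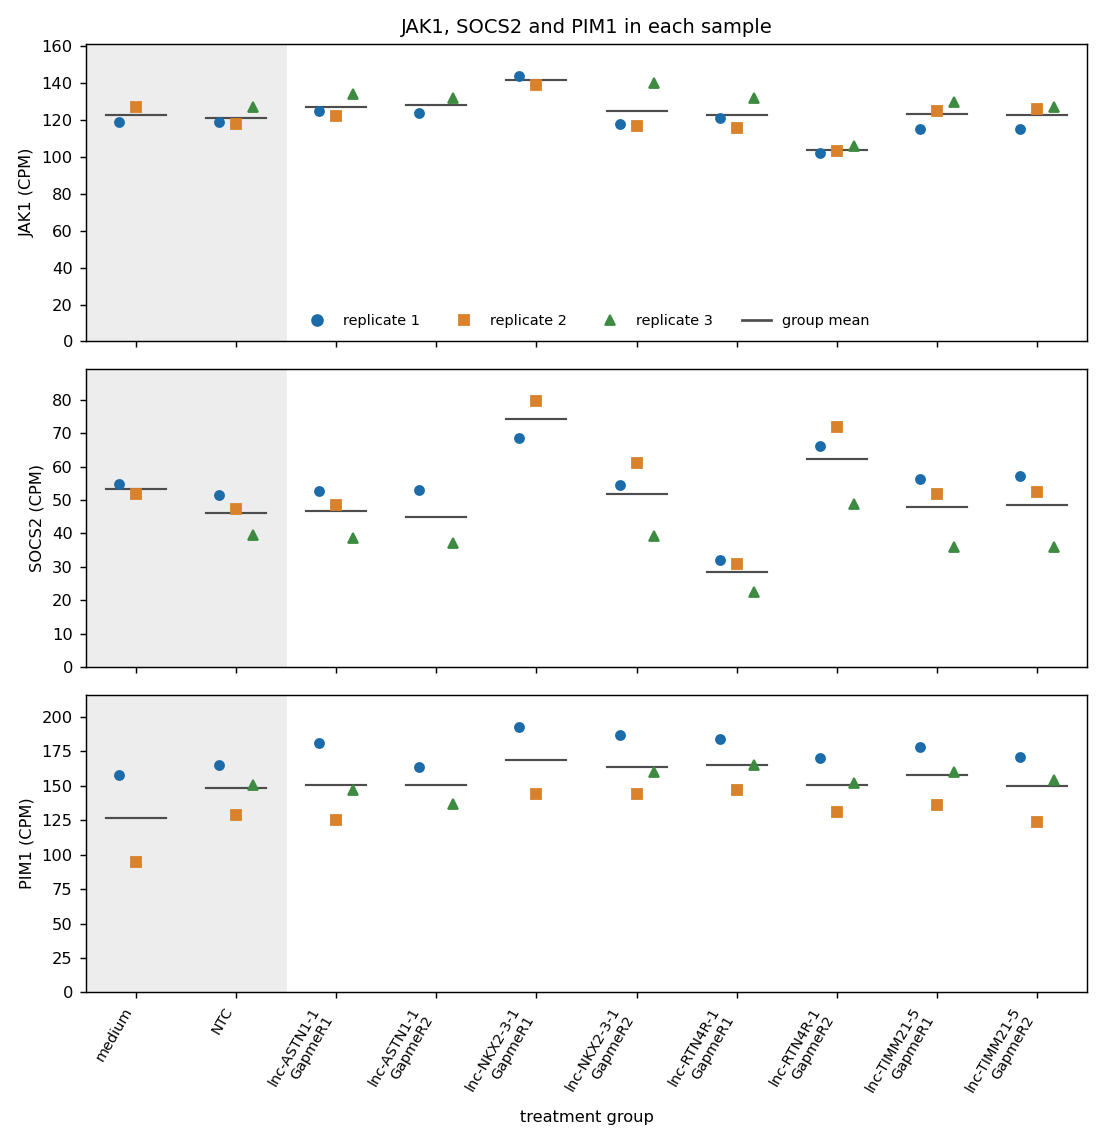
JAK1 (top), SOCS2 (middle) and PIM1 (bottom) in CPM in each of 27 samples by treatment group, with colour and shape for the replicate number, a bar at the group mean and the controls shaded. SOCS2 is lowest with lnc-RTN4R-1 GapmeR1 (22.3 to 32.0 CPM), JAK1 is lowest with lnc-RTN4R-1 GapmeR2 (102 to 106 CPM), and PIM1 is higher in replicate 1 (158 to 193 CPM) than in replicate 2 (95.0 to 147 CPM), with replicate 3 overlapping both.

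Whether both oligonucleotides against 1 lncRNA gave the same level was tested by their difference in the same fit. Of 36 combinations of member and lncRNA, 3 were called without the block and 9 with it. For lnc-RTN4R-1, SOCS2 was lower with GapmeR1 than with GapmeR2 by 1.14 on the log2 scale (log2 difference -1.14, SE 0.213, adjusted p = 0.00105), the largest difference of the 36, and it was lower in each of 3 replicate numbers. JAK1 was higher with GapmeR1 than with GapmeR2 of lnc-RTN4R-1 (0.25, SE 0.071, adjusted p = 0.0255). The JAK1 call was lost without replicate 1 or 3 of GapmeR1 or replicate 1 or 2 of GapmeR2 (adjusted p of up to 0.183) and held with the block. That is 2 of 9 members, 1 higher and 1 lower, against 9.09% of all genes (5.27% higher and 3.82% lower with GapmeR1). With the block EPOR and PIM1 were called too (0.195 and 0.14, adjusted p = 0.022 and 0.0414), 4 of 9 against 26.3% (13.3% higher and 13.0% lower). Both were lost when single libraries were left out, EPOR at 3 of 27 and PIM1 at 9 of 27. For lnc-NKX2-3-1, IL7R was higher with GapmeR1 than with GapmeR2 (0.50, SE 0.099, adjusted p = 0.000728), 1 of 9 members against 17.8% of all genes (6.71% higher and 11.1% lower with GapmeR1). With the block JAK1, JAK2 and SOCS2 were higher and EPOR lower with GapmeR1 as well (log2 differences 0.22, 0.22, 0.38 and -0.19), 5 of 9 against 33.4% (16.2% higher and 17.2% lower). The EPOR call was lost at 10 of 27 libraries left out (adjusted p of up to 0.178) and that of JAK2 at 4, the replicates 1 and 2 of either GapmeR (up to 0.169). For lnc-ASTN1-1 and lnc-TIMM21-5 no member was called in either fit by edgeR, against 0.553% and 0.141% of all genes without the block and 1.67% and 0.375% with it. No member had an unadjusted p under 0.05 there without the block, 1 did with it, and DESeq2 called none.

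With both GapmeRs of a lncRNA pooled against all 5 controls, no member was called for any of 4 lncRNAs (0 of 36, edgeR), and DESeq2 called none. The study also pooled the GapmeRs of a lncRNA but describes equal numbers of treated and control samples, whereas here 5 controls met 6 samples, or 5 for lnc-NKX2-3-1 and lnc-ASTN1-1. One combination had an unadjusted p under 0.05, IL7R with lnc-RTN4R-1 (log2 fold change 0.21, SE 0.070, adjusted p = 0.265). The share of all genes called was 0.476% for lnc-RTN4R-1, 0.0136% for lnc-ASTN1-1, 0.00665% for lnc-TIMM21-5 and 0% for lnc-NKX2-3-1. With the block IL7R was called with lnc-RTN4R-1 (0.23, SE 0.043, adjusted p = 0.0157), 1 of 9 members, higher, against 1.96% of all genes (1.28% higher and 0.684% lower). For the others the blocked shares were 0.881% (lnc-ASTN1-1), 1.32% (lnc-TIMM21-5) and 0.0135% (lnc-NKX2-3-1), with no member called and 4 combinations at an unadjusted p under 0.05. SOCS2 had a pooled log2 fold change of -0.11 for lnc-RTN4R-1 (95% confidence interval -0.72 to 0.50), as its values with the 2 GapmeRs lay on opposite sides of the controls.

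Between NTC and medium no member was called by edgeR (0 of 9, and 0% of all genes). No member had an unadjusted p under 0.05, and DESeq2 called none. With the block none was called either, against 0.0676% of all genes, and PIM1 had an unadjusted p under 0.05. The widest intervals were those of CISH (-1.02 to 0.40 on the log2 scale) and SOCS2 (-0.70 to 0.27), so differences of that size between medium and NTC could be missed with 2 and 3 samples. A test of any difference among the 10 groups called IL7R (adjusted p = 0.00795), SOCS2 (0.0120) and JAK1 (0.0219), 3 of 9 members against 16.1% of all genes. Without replicate 2 of lnc-NKX2-3-1 GapmeR1, IL7R and SOCS2 were not called (adjusted p = 0.0962 and 0.0552), and JAK1 was not called at 5 of 27 libraries left out, any sample of lnc-NKX2-3-1 GapmeR1 or lnc-RTN4R-1 GapmeR2 (up to 0.0917). With the block 7 of 9 were called, all but STAT5B and CISH, against 48.6%.

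The replicate number, taken here to stand for the day of treatment, also set the levels of the members apart. Replicate 3 was compared with the mean of replicates 1 and 2 with the treatment group in the fit. It had higher EPOR (log2 fold change 0.16, adjusted p = 0.000202), JAK1 (0.12), JAK2 (0.24), STAT5A (0.19) and CISH (0.34, adjusted p = 0.0269). It had lower IL7R (-0.11, adjusted p = 4.46e-05) and SOCS2 (-0.50, SE 0.037, adjusted p = 1.56e-14). These are 7 of 9 members, 5 higher and 2 lower, against 54.1% of all genes (28.1% higher and 26.0% lower). The call of CISH was lost at 5 of 27 libraries left out (adjusted p of up to 0.104), replicate 3 of NTC, of lnc-NKX2-3-1 GapmeR2 and of lnc-RTN4R-1 GapmeR2 and both of lnc-ASTN1-1 GapmeR2, and by DESeq2 (0.0543). By replicate number, SOCS2 had medians of 54.7, 51.7 and 37.9 CPM and JAK2 of 19.9, 20.6 and 24.3 CPM. PIM1 and STAT5B were not called. Between replicates 1 and 2, a contrast added after the values were seen, PIM1 was 0.44 higher on the log2 scale in replicate 1 (SE 0.029, adjusted p = 1.27e-14), with medians of 174 and 131 CPM. EPOR was also higher (0.10, adjusted p = 0.0432) and IL7R lower (-0.17, adjusted p = 7.64e-07), 3 of 9 members against 23.4% of all genes (10.8% higher and 12.7% lower). The EPOR call was lost at 11 of 27 libraries left out (adjusted p of up to 0.133), by DESeq2 (0.0541) and with no low-count filter (0.0639). With no treatment group in the fit neither EPOR (0.306) nor IL7R (0.124) was called. The share of the variance of log2 CPM between replicate numbers was 67.5% for PIM1, 45.4% for JAK2, 38.7% for SOCS2 and 37.7% for EPOR. The share between the 10 groups was 71.5% for IL7R, 70.8% for JAK1, 69.0% for STAT5B and 68.9% for SOCS2. Both shares overlap, since the groups do not hold the same numbers of each replicate number. A split into 10 groups also takes up more of the variance by construction than a split into 3 replicate numbers. These shares thus cannot be set against each other. A high share is not a call, and STAT5B was not called by the test of any group difference (adjusted p = 0.31 without the block).

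**Figure D5:**
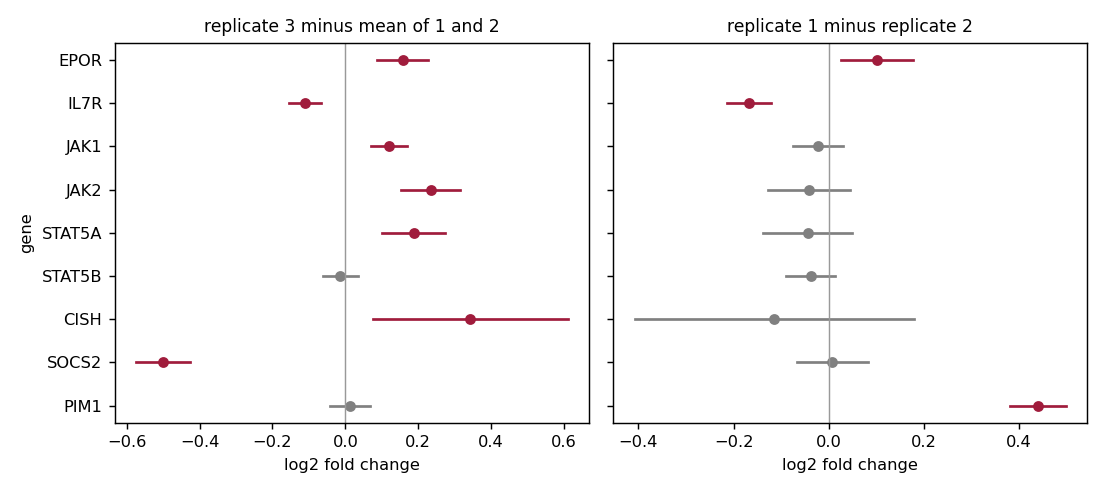
Log2 fold change (point) with 95% confidence interval (line) of 9 members for replicate 3 minus the mean of replicates 1 and 2 (left) and for replicate 1 minus replicate 2 (right), with the treatment group in the fit. Dark red marks an adjusted p under 0.05, which 7 members reach on the left (SOCS2 lowest at -0.50) and 3 on the right (PIM1 highest at 0.44).

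Across samples, the members differed in how they varied together. The highest Pearson r of log2 CPM among the 9 members was that of JAK1 and JAK2 (0.751), and the lowest that of EPOR and SOCS2 (-0.631). The feedback inhibitors CISH and SOCS2 had r = 0.000726. The samples behind these values share days and GapmeRs, so r is given as a description over 27 samples.

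Other genes of the route came from 5 lists of 74 genes, of which 61 passed the filter. With lnc-NKX2-3-1 GapmeR1, 12 of the 61 were higher and 7 lower (31.1% called, against 19.0% of all genes, 7.81% higher and 11.2% lower), with a median log2 fold change of 0.05 against 0.00 over all genes tested. Adaptors and branch kinases had 6 higher and 2 lower of 14, negative regulators 3 higher and 4 lower of 17, STAT5-linked survival and growth genes 3 higher of 11, ligands and other receptor chains 1 lower of 13, and other JAK and STAT genes none of 6. GAB2, a docking adaptor, fell (-0.96, SE 0.085, adjusted p = 6.18e-09) while its relative GAB1 (0.76, adjusted p = 0.00300) and the phosphatase INPP5D (0.66, adjusted p = 8.23e-08) rose. Among the negative regulators, PIAS2, a SUMO ligase, fell from 89.5 ± 3.43 CPM (SD, n = 5) in the controls to 25.7 ± 0.624 (n = 2), a log2 fold change of -1.80 (adjusted p = 1.40e-13). SOCS7 fell (-0.76, adjusted p = 3.57e-06) and SOCS6 rose (0.52, adjusted p = 0.0101). CSF3R, the G-CSF receptor, fell (-1.05, adjusted p = 0.0246), and OSM, a cytokine gene that STAT5 is known to induce, rose (0.95, adjusted p = 0.0186).

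With lnc-RTN4R-1 GapmeR2, 6 of the 61 genes were higher and 3 lower (14.8%, against 9.46% of all genes, 4.32% higher and 5.14% lower), with a median log2 fold change of 0.12 against 0.01 over all genes tested. CCND2, which encodes cyclin D2, rose from 3.27 ± 0.900 CPM (SD, n = 5) to 13.7 ± 2.02 (n = 3), a log2 fold change of 2.14 (SE 0.225, adjusted p = 3.07e-07). The receptor chains IL4R (0.58, adjusted p = 0.0132) and IL6ST (0.31, adjusted p = 0.0315) and the transcription factor STAT6 (0.26, adjusted p = 0.00123) rose as well. With lnc-RTN4R-1 GapmeR1, 3 of 61 were higher and none lower (4.92%, against 2.39% of all genes). Among them was BCL6, a transcriptional repressor found in germinal centre B cells (0.53, adjusted p = 0.00990). With lnc-ASTN1-1 GapmeR1, 1 of 61 was higher (1.64%, against 1.22% of all genes). No gene of the lists was called without the block for the remaining 4 GapmeRs (edgeR), against 0.0184% to 0.184% of all genes. With the block, 19 of the 61 were higher and 10 lower with lnc-NKX2-3-1 GapmeR1 (47.5%, against 35.7% of all genes), and 19 higher and 7 lower with lnc-RTN4R-1 GapmeR2 (42.6%, against 25.2%). With lnc-RTN4R-1 GapmeR1 the blocked counts were 4 higher and 4 lower (13.1%, against 9.03%). They were 2 higher and 1 lower (4.92%) with each of lnc-ASTN1-1 GapmeR1, lnc-NKX2-3-1 GapmeR2 and lnc-TIMM21-5 GapmeR1, against 4.82%, 3.74% and 3.31% of all genes. With lnc-TIMM21-5 GapmeR2 1 gene was higher (1.64%, against 0.818%), and with lnc-ASTN1-1 GapmeR2 none was called, against 0.16% of all genes.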

How the data were processed

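The authors aligned the reads to hg38 with STAR and deposited raw gene counts of uniquely mapped reads, not normalised, in 1 unstranded and 2 stranded columns per sample. Their annotation release is not given in the sources used here. The labels describe ribodepleted, stranded total RNA and the methods poly-A selection. Column 4 held 95.27% of the stranded counts and was used. Gene names came from GENCODE v44, which matched 56434 of 60619 identifiers. Counts were fitted with edgeR 4.0.16 (R 4.3.3; TMM, robust quasi-likelihood, filterByExpr with minimum count 10 and total 15), with DESeq2 1.42.0 as an alternative. CPM used TMM library sizes. Standard errors were the log2 fold change over the root of F. Each GapmeR, their differences and NTC against medium came from 1 fit of 27 samples, and pooled GapmeRs from the samples of the contrast.

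The study's methods place replicates on different days, and equal replicate numbers were taken to pair samples. Deviations from group means correlated by 0.263 on average over 109 same-number pairs (-0.0349 to 0.505), against -0.130 over 218 other pairs. Replicates are cultures of 1 line, and the tests set each difference against the spread between these cultures. Without the block that spread holds the differences between replicate numbers, and with the block their shared part is taken out. Named genes were the 10 members, from each list up to 3 called genes with the largest fold change, and the 3 genes most like EPOR and IL7R. Members and lists were chosen with earlier results of these data known. In simulated counts of 16268 genes for 1 GapmeR group of 3 against the controls, 100 genes were changed by 0.5 on the log2 scale and 100 by 1. Of those changed by 0.5, 57% were called in the fit lacking a block and 88% in the blocked fit. Over all calls, the larger changes included, 0.685% and 5.64% were false. Changes under 0.5, the size of most blocked calls of the members, were not simulated, so these recovery shares do not cover them. The simulated replicate effect was the same in every group, as the block assumes, so the gain with the block was built in. Genes with the lowest counts were not among those changed.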

Additional observations from a re-analysis of the deposited data

Results flagged for a closer look

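In 4 cases a single sample stood far from the rest of its set, by the size of its gap relative to the range of the set. In the 5 controls, JAK2 was 25.8 CPM in replicate 3 of NTC, with the next at 20.6 CPM, and CISH was 0.623 CPM in replicate 1 of NTC, with the next at 1.38 CPM. In the 6 samples of lnc-RTN4R-1, STAT5A was 21.3 CPM in replicate 3 of GapmeR2, with the next at 17.3 CPM. In the 6 samples of lnc-TIMM21-5, CISH was 1.17 CPM in replicate 2 of GapmeR2, with the next at 1.49 CPM. The gap was examined in 45 sets of samples, and chance alone sets apart about 1 set in 20. JAK2 and STAT5A were also higher in replicate 3 over all groups (log2 fold changes 0.24 and 0.19).

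In 3 cases the 2 GapmeRs against the same lncRNA differed by the test of their difference. IL7R differed by 0.503 on the log2 scale between GapmeR1 and GapmeR2 of lnc-NKX2-3-1. JAK1 differed by 0.25 and SOCS2 by -1.14 between GapmeR1 and GapmeR2 of lnc-RTN4R-1.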

How the results depend on the processing

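The count of members called for single GapmeRs was 4. It was 7 with no low-count filter and 16 with the replicate block. It was 12 with the block on the samples of each contrast alone, where all 5 blocked PIM1 calls were lost. With the block and NTC as the only control, an alternative added after the data were seen, it was 13. The counts of 12 and 13 each include a call, not named here, that is not among the 16. Shares of all genes called were given above only for the fits without and with the block. Counts with other filters, samples or controls thus cannot be set against genes in general. Between the GapmeRs of a lncRNA the count of 3 became 9 with the replicate block, for any group difference 3 became 7, and for both GapmeRs of a lncRNA pooled 0 became 1. For replicate 3 the count of 7 became 4 with no treatment group in the fit. With 1 library, or all of a replicate number, left out, with or without the block, the count for single GapmeRs was 0 to 18, that between GapmeRs 0 to 10, that for any group difference 0 to 8 and that for NTC against medium 0 to 1. Without all libraries of replicate 1, the IL7R rise with lnc-NKX2-3-1 GapmeR1 was not called (adjusted p = 0.0963) unless blocked. The blocked rise of JAK1 with the same GapmeR was then not called (0.0623). These fits hold fewer samples. PIM1 with lnc-RTN4R-1 GapmeR2 ranged from -0.0107, without replicate 2 of medium, to 0.351, without replicate 1 of medium, on the log2 scale and was not called in either. JAK1 was not called without the low-count filter with lnc-NKX2-3-1 GapmeR1 (adjusted p = 0.0783) or lnc-RTN4R-1 GapmeR2 (0.0741), nor with lnc-NKX2-3-1 GapmeR1 against NTC alone (0.0557). Its difference between the GapmeRs of lnc-RTN4R-1 was not called without that filter (0.109) or on the samples of the contrast alone (0.0635). Calls gained without that filter, and without the block, included PIM1 with lnc-NKX2-3-1 GapmeR1 (adjusted p = 0.00377) and lnc-RTN4R-1 GapmeR1 (0.0223). IL7R with lnc-RTN4R-1 GapmeR1 (0.0427) and SOCS2 with lnc-RTN4R-1 GapmeR2 (0.00225) were gained too. So were SOCS2 between the GapmeRs of lnc-NKX2-3-1 (1.15e-05) and PIM1 for any group difference (0.0253). The cause was not tested. The block changed no call of a member other than those given beside the results. Limits are the 2 to 3 samples per group, the shared controls, the missing replicates, and the few counts of CISH and CRLF2.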
